A study of Mus musculus with 8 samples.

Results

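The 10 genes described here serve the melanocyte, the pigment cell of skin and hair: the transcription factor Mitf, the receptors Kit and Ednrb, the enzymes Dct, Tyrp1 and Tyr, the melanosome proteins Pmel and Mlana, and the transporters Slc45a2 and Oca2. They were taken by gene symbol from the array annotation, with the brightest probe set of each gene, and all 10 were found among 19938 named genes. The arrays came from back-skin keratinocytes of CD1 mice aged 8 weeks, of both sexes, that were either K14Snail, a transgenic line with Snail under the keratin 14 promoter, or wild type. In each genotype, cells carrying CD34, an antigen of the hair follicle bulge, or Mts24, an antigen of the upper follicle, were pulled out with a magnet, and the cells left behind were profiled too. This gave 8 groups of 1 array: K14Snail CD34 positive, K14Snail CD34 negative, K14Snail Mts24 positive and K14Snail Mts24 negative cells, and the same 4 fractions from wild type mice. Each CD34 array held RNA of 11 pooled mice and each Mts24 array of 9. CD1 mice are an outbred albino stock, and albinism in laboratory mice comes from a change in the protein that Tyr encodes, which leaves melanocytes in place without pigment. The keratin 14 promoter is active in basal keratinocytes and the outer root sheath. How many founder lines were used is not stated in the labels.

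Melanocytes arise from the neural crest and settle in hair follicles, where their stem cells lie in the bulge and the germ beneath it, beside the keratinocyte stem cells. Kit, whose ligand Kitl is made by keratinocytes, and Ednrb, the receptor for endothelins, guide their migration and survival. Mitf switches on the pigment genes by binding short E-box letters in their promoters. Dct, Tyrp1 and Tyr are related copper and zinc enzymes that build melanin inside the melanosome, Pmel forms the fibrils on which it is laid down, and Mlana assists Pmel. Slc45a2 and Oca2 set the ionic conditions in which Tyr works. Mitf is also made in other cells, among them mast cells and macrophages.

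The promoters of Dct, Tyrp1 and Tyr are shown because these related enzymes are classical targets of Mitf and their transcripts are compared with Mitf below. Each line holds the 250 bases before the start used by RefSeq, in the mouse reference build GRCm38.p6, which is not of the CD1 stock. Capitals mark the letters CATGTG, or CACATG where they lie on the other strand.
Dct, chr14:118052247-118052496, minus strand: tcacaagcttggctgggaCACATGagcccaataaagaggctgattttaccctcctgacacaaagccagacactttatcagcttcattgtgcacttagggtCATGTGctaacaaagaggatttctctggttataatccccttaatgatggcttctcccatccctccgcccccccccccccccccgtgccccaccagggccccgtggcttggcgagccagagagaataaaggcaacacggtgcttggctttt
Tyrp1, chr4:80833963-80834212, plus strand: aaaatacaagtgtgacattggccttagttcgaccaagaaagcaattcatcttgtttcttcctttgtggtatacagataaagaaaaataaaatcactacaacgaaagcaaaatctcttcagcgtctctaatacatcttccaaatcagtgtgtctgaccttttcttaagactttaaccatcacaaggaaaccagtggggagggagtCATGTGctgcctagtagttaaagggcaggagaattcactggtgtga
Tyr, chr7:87493513-87493762, minus strand: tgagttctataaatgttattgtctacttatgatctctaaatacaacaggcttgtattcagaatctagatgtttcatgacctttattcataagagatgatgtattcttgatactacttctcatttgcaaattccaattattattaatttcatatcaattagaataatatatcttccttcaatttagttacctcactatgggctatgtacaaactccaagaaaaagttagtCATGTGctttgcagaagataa
The first capital letter of the nearest match lay 150 bases before the start in Dct, 46 in Tyrp1 and 21 in Tyr, and Dct held another match, on the other strand, at 232. RefSeq gave 10 windows for 7 of the 10 genes. CATGTG was found in 4 of these windows, those of Dct, Tyrp1, Tyr and Oca2, and in 12.3% of all 32851 windows of this length. CACGTG, the other E-box searched on both strands, was found in 0 of the 10 windows and in 6.02% of all windows. The 3 enzyme promoters shared a longer run around the match, GTCATGTGCT, which stood in 51 windows of the genome (0.155%). This run was read from the 3 sequences themselves, so its presence there is no test.

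Values are log2 levels after RMA, the authors' normalization, and a level of 7.70, the median over all genes and arrays, served as the floor for testing. Testing asked for 2 or more of the 8 arrays at or above it, which kept 10720 genes and 5 of the 10 pigment cell genes: Dct, Tyrp1, Mitf, Pmel and Kit. Tyr, Ednrb, Slc45a2 and Oca2 reached the floor on 0 arrays and Mlana on 1, and their values are given without a test. The sort and the transgene were visible: Cd34 was higher by 7.24 in CD34 positive cells, Plet1, which carries the Mts24 antigen, by 3.22 in Mts24 positive cells, and Snai1 by 2.94 in K14Snail arrays. Neither marker was confined to its own sort. Cd34 was also higher in Mts24 positive cells, by 1.06 in K14Snail and 2.09 in wild type. Plet1 was higher in CD34 positive cells, by 0.51 in K14Snail and 0.67 in wild type. Mean Cd34 was 13.43 in CD34 positive, 11.84 in Mts24 positive, 10.27 in Mts24 negative and 6.19 in CD34 negative cells. Mitf, described below, had the same order of fractions. The 7 keratinocyte markers averaged 12.83 to 13.11 on the 8 arrays. Leukocyte transcripts were present as well, and the T cell gene Cd3e ranged from 7.69 to 11.94. Since each array is a bulk sample, fewer melanocytes and less RNA per melanocyte cannot be told apart.

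By the signal of the probe sets used, which does not rank amounts between genes, Mitf was the brightest of the 10 genes on the positive arrays. It was highest in the bulge fraction. It stood at 11.12 in K14Snail and 11.33 in wild type CD34 positive cells, against 8.52 in K14Snail and 8.43 in wild type CD34 negative cells. In Mts24 positive cells it stood at 9.46 in K14Snail and 9.90 in wild type, against 8.57 in K14Snail and 8.64 in wild type Mts24 negative cells. Neither sort showed an overlap between its positive and its negative arrays. Mitf rose by 2.75 ± 0.14 in CD34 positive cells (6.73-fold, limma adjusted p = 0.00024) and by 1.07 ± 0.14 in Mts24 positive cells (2.11-fold, adjusted p = 0.00551), where errors here and below are limma's standard errors. The difference between these enrichments was itself past the threshold (1.68 ± 0.19, adjusted p = 0.0124), although not without 1 of 3 negative arrays: the adjusted p was 0.0589 without wild type CD34 negative cells, 0.0548 without wild type Mts24 negative cells and 0.0695 without K14Snail Mts24 negative cells. By mean level the order of fractions was CD34 positive at 11.22, Mts24 positive at 9.68, Mts24 negative at 8.61 and CD34 negative at 8.47. The last 2 differ by less than the standard error of 0.14. A second probe set of Mitf was dim, between 3.76 and 4.17 on all arrays, with its highest values also in CD34 positive cells.

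**Figure D1:**
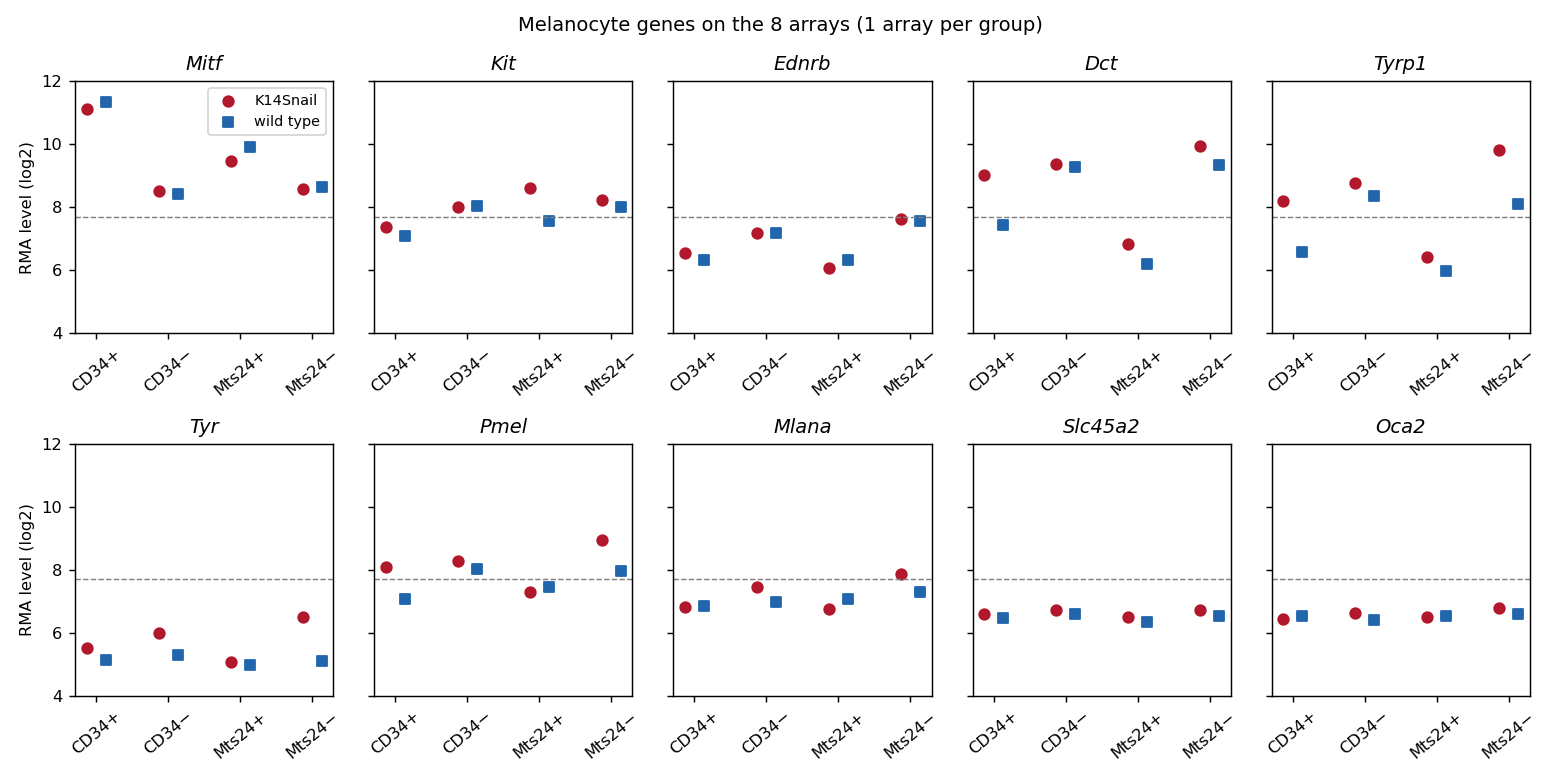
RMA level (log2, vertical axis) of the 10 genes in the 4 sorted fractions (horizontal axis), 1 point per array, K14Snail as circles left of wild type as squares; the dashed line is the floor of 7.70. Mitf is highest in CD34 positive cells, while Dct and Tyrp1 are lowest in Mts24 positive cells.

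Dct and Tyrp1 were lower in Mts24 positive cells, opposite to Mitf. Dct, which converts dopachrome on the way to melanin, stood at 6.83 in K14Snail and 6.21 in wild type Mts24 positive cells, against 9.95 in K14Snail and 9.34 in wild type Mts24 negative cells. It fell by 3.12 on the log2 scale in Mts24 positive cells (standard error 0.32, limma adjusted p = 0.00319), lower in 2 of 2 pairs. Both positive arrays lay under the floor, so the size of the fall depends on the background. In the CD34 sort Dct stood at 9.02 in K14Snail and 7.44 in wild type CD34 positive cells, against 9.38 in K14Snail and 9.28 in wild type CD34 negative cells. The positive arrays were the lower ones in both genotypes, by 0.37 in K14Snail and 1.84 in wild type, and the difference of -1.10 ± 0.32 just missed the threshold (adjusted p = 0.0548). With 1 array left out the value ran from -1.67 (adjusted p = 0.00478, without K14Snail CD34 positive cells) to -0.53 (adjusted p = 0.124, without wild type CD34 positive cells), and it was -0.69 without wild type CD34 negative cells (adjusted p = 0.277).

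Tyrp1, an enzyme that stabilizes Tyr and acts late in melanin synthesis, followed Dct. Its level was 6.43 in K14Snail and 5.98 in wild type Mts24 positive cells, against 9.82 in K14Snail and 8.10 in wild type Mts24 negative cells. It fell by 2.75 on the log2 scale (standard error 0.37, limma adjusted p = 0.00655), and again both positive arrays were under the floor. In the CD34 sort it was at 8.20 in K14Snail and 6.58 in wild type CD34 positive cells, against 8.77 in K14Snail and 8.35 in wild type CD34 negative cells. That difference, -1.17 ± 0.37, did not pass (adjusted p = 0.0705). Tyr, the enzyme of the first and limiting step, was dim throughout, from 4.99 in wild type Mts24 positive to 6.52 in K14Snail Mts24 negative cells. The next highest array, K14Snail CD34 negative cells, was at 6.00, and all 8 lay far below the floor.

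Pmel, the fibril protein, was at 7.31 in K14Snail and 7.45 in wild type Mts24 positive cells, against 8.96 in K14Snail and 7.96 in wild type Mts24 negative cells. The fall of 1.08 on the log2 scale (standard error 0.30) passed narrowly (limma adjusted p = 0.0487), and both positive arrays were under the floor. The arrays did not overlap, but most of the gap came from the K14Snail pair, at -1.65 against -0.51 in wild type. The value without the K14Snail Mts24 negative array was -0.76 (adjusted p = 0.269), without the K14Snail Mts24 positive array -0.63 (adjusted p = 0.22), and without the wild type Mts24 negative array -1.39 (adjusted p = 0.0869). Without either CD34 negative array the adjusted p was 0.0759. In the CD34 sort Pmel was at 8.09 in K14Snail and 7.08 in wild type CD34 positive cells, against 8.28 in K14Snail and 8.02 in wild type CD34 negative cells, and the difference was -0.56 ± 0.30 (adjusted p = 0.234). Mlana, which helps Pmel mature, ranged from 6.77 in K14Snail Mts24 positive to 7.86 in K14Snail Mts24 negative cells. It was lower in the positive fraction in 4 of 4 sort pairs, by 0.14 to 1.09.

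The melanosome transporters were close to flat. Slc45a2 ranged from 6.36 to 6.75 and Oca2 from 6.42 to 6.80, on arrays where Dct spanned from 6.21 to 9.95. At these levels below the floor, absence of a transcript and a weak probe set cannot be told apart.

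The receptors were both lower in CD34 positive cells, by values that did not pass for Kit and lay below the floor for Ednrb. Both CD34 positive values of Kit also lay below the floor. Ednrb, which binds endothelins, was at 6.07 in K14Snail and 6.32 in wild type Mts24 positive cells, against 7.62 in K14Snail and 7.58 in wild type Mts24 negative cells, and was lower in the positive fraction in 4 of 4 sort pairs. Its range in the CD34 sort was narrower, with 6.56 in K14Snail and 6.33 in wild type CD34 positive cells, against 7.17 in K14Snail and 7.18 in wild type CD34 negative cells. All 8 values were below the floor. With no floor at all the Ednrb differences were -1.40 in the Mts24 sort (limma adjusted p = 0.0017) and -0.73 in the CD34 sort (adjusted p = 0.0108). Kit, the receptor for stem cell factor, was at 7.38 in K14Snail and 7.08 in wild type CD34 positive cells, against 8.02 in K14Snail and 8.04 in wild type CD34 negative cells. The groups did not overlap, and the difference of -0.80 ± 0.25 missed the threshold (adjusted p = 0.064). It passed, with the same value, without either Mts24 positive array (adjusted p = 0.0114), and it was -0.53 without wild type CD34 negative cells (adjusted p = 0.315). In the Mts24 sort Kit showed no common direction: it was at 8.60 in K14Snail and 7.56 in wild type Mts24 positive cells, against 8.21 in K14Snail and 8.01 in wild type Mts24 negative cells (-0.03 ± 0.25, adjusted p = 0.943).

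Counted over the 5 tested genes, 1 rose and 0 fell in CD34 positive cells (Mitf), where 26.8% of all tested genes were called, 13.4% higher and 13.4% lower. In Mts24 positive cells 1 rose (Mitf) and 3 fell (Dct, Tyrp1 and Pmel), where 26.3% of tested genes were called, 12.8% higher and 13.5% lower. Dct, Tyrp1 and Pmel reached the floor on the 4 negative arrays and in K14Snail CD34 positive cells only. Their passing the floor thus favoured a lower value in Mts24 positive cells, which limits this count. Without the floor Dct and Tyrp1 passed there (limma adjusted p = 0.00226 and 0.00505) and Pmel did not (0.0543). The median difference of all 10 genes was -0.48 in the CD34 sort and -0.72 in the Mts24 sort. Over the 5 tested it was -0.80 and -1.08, against -0.03 and 0.02 over all tested genes. Of the 10 genes on the array, 7 were lower in the positive fraction in 4 of 4 sort pairs, a pattern held by 19.9% of all genes on the array. The exceptions were Mitf, which was higher in all 4, and Kit and Oca2, each lower in 3.

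**Figure D2:**
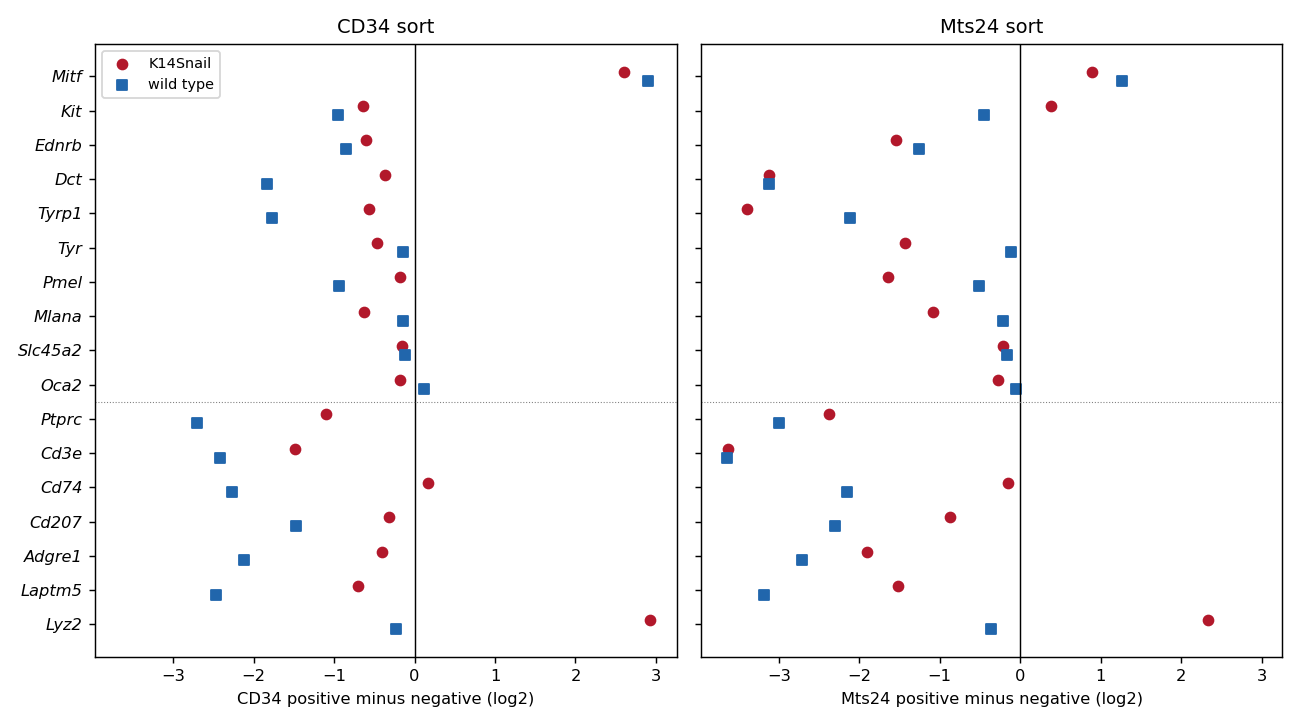
Positive minus negative fraction (log2, horizontal axis) in the CD34 sort (left) and the Mts24 sort (right), 1 point per genotype, K14Snail as circles and wild type as squares; leukocyte genes stand below the dotted line. Mitf lies to the right of 0 in both sorts, at 0.89 to 2.90, while Dct and Tyrp1 lie to the left in both; of the 7 leukocyte genes Cd3e lies to the left in both and Lyz2 far to the right in K14Snail.

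The positive fractions were then set against each other to see whether pigment transcripts followed Mitf. Mitf was higher in CD34 positive than in Mts24 positive cells by 1.54 ± 0.14 (limma adjusted p = 0.00383), and Dct by 1.71 ± 0.32 (adjusted p = 0.0263). Tyrp1 (1.19 ± 0.37, adjusted p = 0.101), Pmel (0.20 ± 0.30, adjusted p = 0.707) and Kit (-0.85 ± 0.25, adjusted p = 0.0805) did not pass. This made 2 of 5 called, both higher, against 13.1% of all tested genes, 8.44% higher and 4.69% lower. The Dct call was lost without either Mts24 positive array (adjusted p = 0.118 without wild type and 0.157 without K14Snail) and without either Mts24 negative array (0.0566). Kit passed without the wild type Mts24 positive array, at -1.29 (adjusted p = 0.0313), and was at -0.41 without the K14Snail one (adjusted p = 0.201). Sort, antibody and pool of mice differ between these fractions too and cannot be told apart from the marker. For the difference between the CD34 and the Mts24 enrichment, Mitf alone of the 5 passed (4.74% of tested genes did, 2.69% higher and 2.05% lower), while Dct was at 2.02 ± 0.46 (adjusted p = 0.0746). Dct passed without the K14Snail CD34 positive array, at 1.45 (adjusted p = 0.0276), and without the wild type one, at 2.59 (adjusted p = 0.0132). Mitf peaked on the wild type CD34 positive array. Of the other tested genes, Dct, Tyrp1 and Pmel peaked on the K14Snail Mts24 negative array, where Mitf was at 8.57, and Kit on another. The untested Tyr, Mlana, Ednrb and Oca2 also peaked there, and Slc45a2 did not. Tyr, Ednrb and Oca2 were below the floor on all arrays, and Oca2 spanned only 6.42 to 6.80. How many of all genes peak on that array was not counted.

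**Figure D3:**
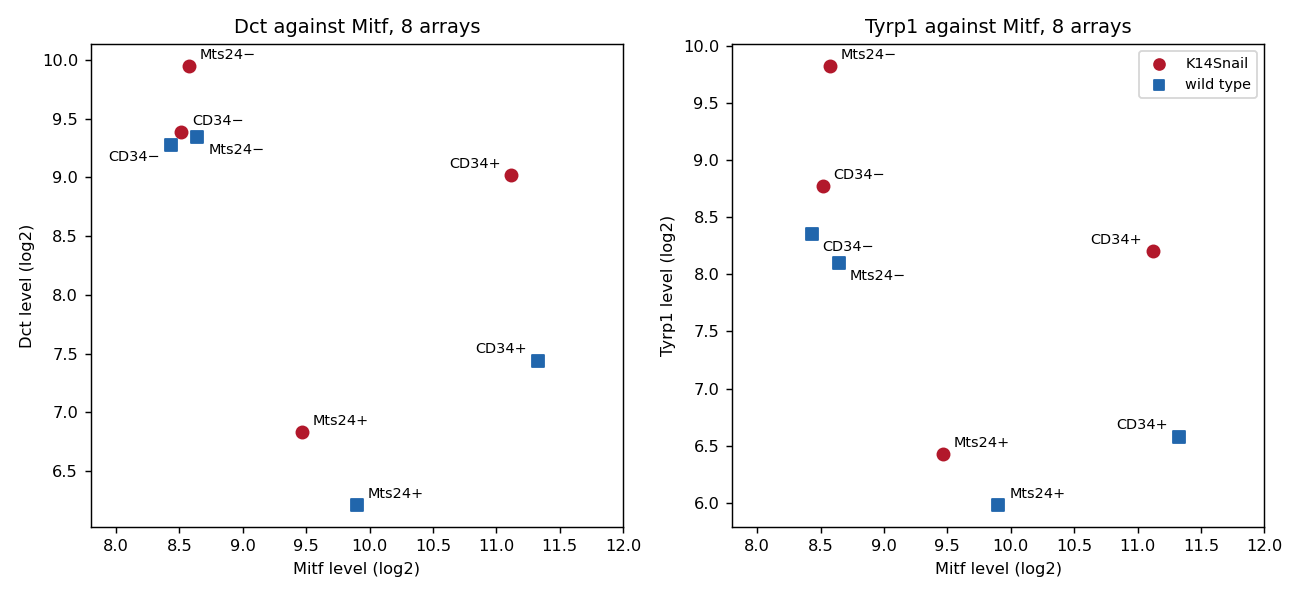
Level of Dct (left) and Tyrp1 (right) against the level of Mitf (all log2), 1 point per array, K14Snail as circles and wild type as squares, labelled by fraction. The 4 negative arrays join Mitf levels of 8.43 to 8.64 with Dct levels of 9.28 to 9.95, and the CD34 positive arrays hold Mitf at 11.12 and 11.33 with Dct at 9.02 and 7.44.

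Genotype was compared over the 4 fractions to ask whether pigment cell transcripts changed with the Snail transgene. None of the 5 tested genes was called by limma (0 of 5), where 0.382% of all tested genes were called, 0.177% higher and 0.205% lower. An unadjusted limma p under 0.05 was held by 3 of the 5 and by 2175 of all 10720 tested genes. Tyrp1 differed most, at 1.05 ± 0.26 (2.08-fold, unadjusted p = 0.00793, adjusted p = 0.139), and was higher in K14Snail in 4 of 4 pairs. By fraction the Tyrp1 difference was 1.62 in CD34 positive, 0.42 in CD34 negative, 0.44 in Mts24 positive and 1.73 in Mts24 negative cells. Dct was at 0.73 ± 0.23 (adjusted p = 0.187), also higher in 4 of 4 pairs, with 1.58 in CD34 positive cells and 0.11 to 0.62 in the others. Pmel was at 0.54 ± 0.21 (adjusted p = 0.241), by fraction 1.02 (CD34 positive), 0.26 (CD34 negative), -0.14 (Mts24 positive) and 1.01 (Mts24 negative). Kit was at 0.38 ± 0.17 (adjusted p = 0.282), of which the Mts24 positive pair made 1.04, and Mitf at -0.16 ± 0.10 (adjusted p = 0.389), higher in K14Snail in 1 of 4 pairs. The list mean of the 7 leukocyte markers was 8.79 in K14Snail and 7.39 in wild type CD34 positive cells. In Mts24 positive cells it was 8.29 in K14Snail and 7.13 in wild type. It was lower in K14Snail in both negative fractions, at 8.92 against 9.35 with CD34 and 9.45 against 9.61 with Mts24. Tyrp1 and Pmel were higher in K14Snail in both of these negative fractions. For genotype 0 of the 7 passed, and their part in the genotype values was not tested.

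Of the untested genes, Tyr was higher in K14Snail in 4 of 4 pairs, by 0.09 to 1.41, and Slc45a2 by 0.11 to 0.19. Thus 4 of the 10 genes, Dct, Tyrp1, Tyr and Slc45a2, had that direction in all pairs, as did 12.3% of all genes on the array. Mlana and Oca2 were higher in K14Snail in the negative fractions and lower in the positive ones. The sign permutation of a single gene over 4 pairs cannot give a two-sided exact p below 0.125. Whether the positive minus negative difference changed with genotype was tested as an interaction, and limma called 0 of the 5 genes and 0 of all 10720 (0% called). At an unadjusted p under 0.05 the counts were 0 of the 5 and 1060 of all. Dct had 0.74 ± 0.36 (adjusted p = 0.587), with 1.22 without either Mts24 positive array (adjusted p = 0.0205) and 0.26 without either CD34 positive array (adjusted p = 0.669), and Tyrp1 -0.04 ± 0.56 (adjusted p = 0.992).

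**Figure D4:**
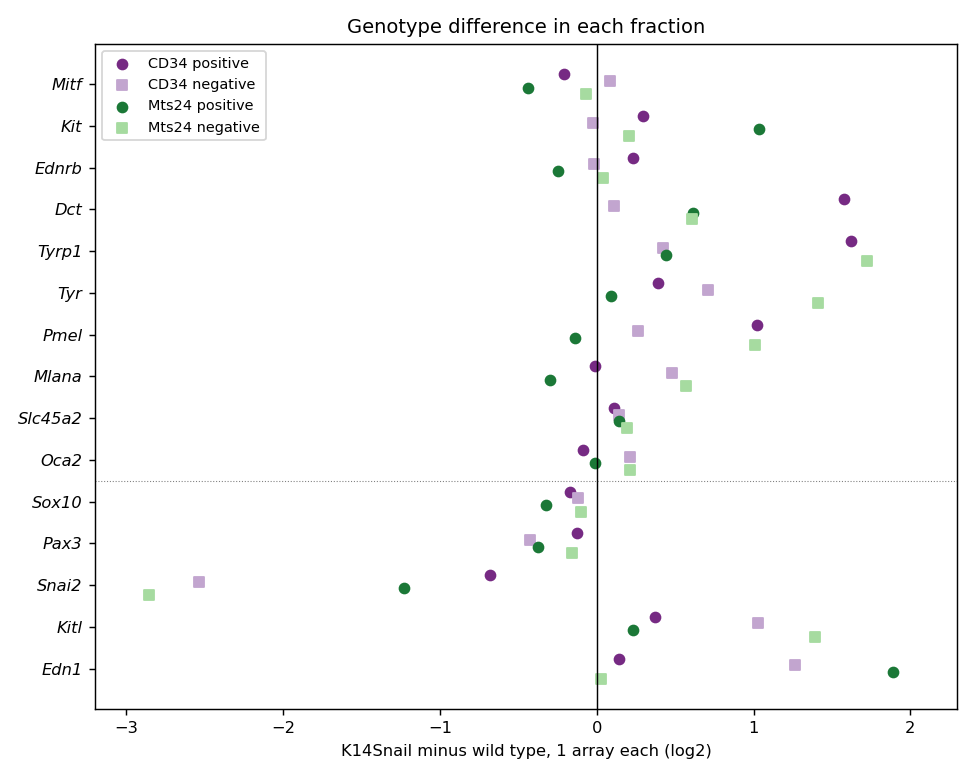
K14Snail minus wild type (log2, horizontal axis) in each fraction, 1 point per pair of arrays, for the 10 genes and, below the dotted line, 5 other genes of the melanocyte lineage or its signals. Dct and Tyrp1 lie to the right of 0 in all 4 fractions and Snai2 to the left.

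Other genes of the lineage were followed as well. Among 8 melanocyte markers outside the 10 genes, Sox10 and Gpnmb were tested, and the others reached the floor on 0 arrays. By mean difference 6 of the 8 were lower in CD34 positive cells (median -0.17) and 7 in Mts24 positive cells (median -0.24). The medians over all tested genes were -0.03 and 0.02. Sox10, the neural crest factor that acts upstream of Mitf, was at 7.32 in K14Snail and 7.64 in wild type Mts24 positive cells, against 7.75 in K14Snail and 7.86 in wild type Mts24 negative cells. It reached the floor on these 2 negative arrays only, so its passing the floor favoured a lower value in Mts24 positive cells. The difference of -0.33 was called with the floor, but did not pass without the floor (limma adjusted p = 0.0783). Pax3, which acts with Sox10, lay below the floor at 6.29 in K14Snail and 6.66 in wild type Mts24 positive cells, against 7.23 in K14Snail and 7.39 in wild type Mts24 negative cells. The melanocortin receptor Mc1r stayed between 6.39 and 6.73. Gpnmb, a melanosome and lysosome glycoprotein also made by macrophages, moved with Mitf in the CD34 sort: it rose by 1.36 ± 0.30 (adjusted p = 0.0234), with 10.26 in K14Snail and 10.71 in wild type CD34 positive cells, against 9.47 in K14Snail and 8.78 in wild type CD34 negative cells.

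Of 17 transcription factors of the lineage other than Mitf, 10 were tested. In CD34 positive cells 3 rose and 0 fell, Sox9 (2.38 ± 0.08), Tfap2b (1.21 ± 0.12) and Rbpj (0.55 ± 0.08), all factors that follicle keratinocytes also make. Of all tested genes 26.8% were called there, 13.4% higher and 13.4% lower. In Mts24 positive cells 3 rose, Sox9 (2.40 ± 0.08), Snai2 (2.03 ± 0.53, limma adjusted p = 0.0415) and Tfap2b (0.42 ± 0.12). In the same cells 1 fell, Sox10, with the limit of the floor given above. Of all tested genes 26.3% were called in that sort, 12.8% higher and 13.5% lower. For genotype 0 of the 10 passed. Snai2, or Slug, which melanoblasts need and basal keratinocytes also make, was at 10.62, 8.18, 9.95 and 7.11 in K14Snail CD34 positive, CD34 negative, Mts24 positive and Mts24 negative cells, against 11.30, 10.71, 11.18 and 9.96 in the same wild type fractions. It was lower in K14Snail in 4 of 4 pairs, with differences of -2.53 and -2.86 in the CD34 and Mts24 negative fractions. The mean over the 4 fractions was -1.83 ± 0.38 (adjusted p = 0.107).

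Genes of melanosome assembly and transport, many of them used by all cells for lysosome-related organelles, had 25 members on the array and 23 tested. In CD34 positive cells 2 rose, the Hermansky-Pudlak protein Hps3 (0.93 ± 0.20) and Snapin (0.40 ± 0.09), and 4 fell. The largest fall was that of Rab27a, the GTPase that tethers melanosomes to actin (-2.84 ± 0.12, limma adjusted p = 0.000204), followed by Mreg (-1.06 ± 0.09), the copper pump Atp7a (-0.70 ± 0.15) and Rab38 (-0.55 ± 0.09). In Mts24 positive cells 0 rose and 7 fell, among them Rab27a (-1.35 ± 0.12), the lysosomal trafficking regulator Lyst (-0.98 ± 0.13), Atp7a (-0.66 ± 0.15) and the melanosome motor Myo5a (-0.54 ± 0.12). The 6 of 23 called in the CD34 sort lie near the 26.8% of all tested genes called there. In the Mts24 sort the 7 of 23 called were all lower. There 26.3% of all tested genes were called, 12.8% higher and 13.5% lower. How the list stands against these shares was not tested. The list's median was -0.08 in the CD34 sort and -0.17 in the Mts24 sort, against -0.03 and 0.02 over all tested genes. Rab27a stood at 7.63 in K14Snail and 8.02 in wild type CD34 positive cells, against 10.61 in K14Snail and 10.71 in wild type CD34 negative cells, opposite to Mitf. For genotype 0 of 23 passed.

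Among 14 genes for signals that reach melanocytes, 9 were tested. The growth factor Tgfb2, which keeps melanocyte stem cells quiescent, rose in both positive fractions, by 2.23 ± 0.19 with CD34 and 2.06 ± 0.19 with Mts24. It reached the floor on the 4 positive arrays only, so its passing the floor favoured a higher value in the positive fractions. The transcription factor Nfib also rose in both, by 1.00 ± 0.10 and 0.66 ± 0.10. Tgfb1 rose with Mts24 (0.56 ± 0.13), and Foxn1, a keratinocyte factor that recruits melanocytes, fell in both (-1.29 ± 0.25 and -1.46 ± 0.25). Kitl, the ligand of Kit, was at 8.45, 7.89, 7.47 and 7.93 in K14Snail CD34 positive, CD34 negative, Mts24 positive and Mts24 negative cells, against 8.08, 6.86, 7.24 and 6.54 in the same wild type fractions. It was higher in K14Snail in 4 of 4 pairs, with differences of 1.03 and 1.39 in the CD34 and Mts24 negative fractions. The mean over the 4 fractions, 0.76 ± 0.20, did not pass (limma adjusted p = 0.155). The endothelin gene Edn3 lay between 6.49 and 7.00. Edn1, named after its values were seen, was higher in K14Snail by 1.89 in Mts24 positive and 1.27 in CD34 negative cells and by at most 0.14 in the other fractions (0.83 ± 0.33, adjusted p = 0.24). For genotype 0 of 9 passed.

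Likeness over the 8 arrays was measured as Pearson's r and is given as a description, since the arrays fall into fractions and share pools. Dct and Tyrp1 were each other's closest among the 10 genes (r = 0.96), and Pmel was closest to Tyrp1 (r = 0.95). Mitf had a negative r with each of the other genes among the 10, from -0.37 (Tyr) to -0.77 (Kit). Outside the 10 genes, the tested genes most like Mitf were Setbp1 (r = 0.998), Tmem35b (0.994) and Dixdc1 (0.994). Setbp1 ranged from 7.16 to 10.22. The genes most like Dct were Atl3 (0.973), Ufl1 and Trip11 (0.960 each), and those most like Tyrp1 were Stag2 (0.969), Arih1 (0.960) and Cul5 (0.956). These 6 varied far less, Atl3 for example from 11.20 to 11.64. Pmel was most like Ddx3x, Zscan29 and Kctd17 (0.924 to 0.930), and Kit most like the gasdermin gene Gsdmc (0.969), Eipr1 (0.964) and Ino80c (0.961).

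Other cell types that make some of the 10 genes were followed beside them. The 10 mast cell markers on the array, cells that also carry Kit and Mitf, reached the floor on 0 arrays, with list means of 5.28 to 5.42 in K14Snail and 5.34 to 5.48 in wild type arrays. Of 9 endothelial markers, a cell type that carries Ednrb, 1 reached it on 1 array. Of 7 leukocyte markers, 5 fell in Mts24 positive cells, where 13.5% of tested genes were called lower, and 2 in CD34 positive cells, where 13.4% were. Cd3e (-3.64 ± 0.25) and Ptprc (-2.69 ± 0.39) were among those lower with Mts24. Ptprc reached the floor on the 4 negative arrays only and the macrophage marker Adgre1 on 3 of them only. Their passing the floor thus favoured a lower value in the positive fractions, which limits the counts of leukocyte markers that fell. The myeloid gene Lyz2 went the other way in K14Snail, with 8.97 in CD34 positive against 6.04 in CD34 negative cells, and 8.91 in Mts24 positive against 6.57 in Mts24 negative cells. Lyz2 reached the floor on these 2 positive arrays only, so its passing the floor favoured a higher value there. Cd74 stayed within 11.71 to 12.31 on the 4 K14Snail arrays. The list mean was 8.29 in K14Snail and 7.13 in wild type Mts24 positive cells, against 9.45 in K14Snail and 9.61 in wild type Mts24 negative cells. In the CD34 sort it was 8.79 in K14Snail and 7.39 in wild type positive cells, against 8.92 in K14Snail and 9.35 in wild type negative cells. Their part in the pigment gene differences was not tested. Of 7 Schwann cell markers, a lineage that shares Sox10 and Erbb3 with melanocytes, 3 were tested. In CD34 positive cells Mbp (-1.15 ± 0.11) and Erbb3 (-0.88 ± 0.11) fell, where 13.4% of tested genes were called lower. In Mts24 positive cells Mbp fell (-0.97 ± 0.11), where 13.5% were called lower. All 7 had a mean difference below 0 in the CD34 sort, but the untested ones lay below the floor on all arrays. Mean Gfap, for example, was 6.32 in both CD34 fractions. How many of all genes had that direction was not counted. The list mean was 7.04 in K14Snail and 7.19 in wild type CD34 positive cells, against 7.71 in K14Snail and 7.60 in wild type CD34 negative cells. Their part was not tested. Fibroblast markers followed Mitf in part: 2 of 4 tested rose, where 13.4% of tested genes were called higher, with Fbln1 (2.71 ± 0.20) and Col1a2 (0.95 ± 0.09) higher in CD34 positive cells while Lum and Dpt stayed under 5.00. Dcn, below the floor, was at 7.64 in K14Snail and 6.37 in wild type CD34 positive cells, against 6.66 in K14Snail and 6.42 in wild type CD34 negative cells. The mean of the 8 fibroblast markers was 7.37 in K14Snail and 7.18 in wild type CD34 positive cells, against 6.73 in K14Snail and 6.60 in wild type CD34 negative cells. Their part in the Mitf difference was not tested.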

How the data were processed

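The authors deposited log2 values per probe set made with RMA, per the submitters' processing notes (version not stated there; genome build not given in the sources used here). Values from 3.04 to 14.49 fit that scale (array medians 7.32 to 7.42). Of 28874 probe sets 21789 have 1 gene symbol, 1621 several and 5464 none, and only the first were used, with the highest mean probe set per gene. limma 3.58.1 in R 4.3.3 fitted the 4 fractions and genotype to all 8 arrays (3 residual degrees of freedom); a term for genotype by positive fraction gave the interaction (2 residual degrees of freedom). P-values were adjusted by Benjamini-Hochberg over 10720 genes at 0.05. Each group has 1 array, so genotypes replicate the fractions and fractions the genotypes, and p-values measure the spread between these arrays. Pools are not shown to be independent. A pool block gave a negative correlation (-0.18), which shrinks genotype errors, so it is an alternative only. The number of arrays limits the precision. Figures used Python 3.11.15 and matplotlib 3.10.9. The fit was tested on simulated data.

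The members, gene lists and alternatives were chosen with earlier results of these data known. Named genes are the 10 members, the 3 tested genes most like each tested member, list genes past the threshold (at most 6 per list and comparison), Sox10, Pax3, Mc1r, Snai2, Kitl and Edn3, and the sort and transgene checks. Some other list genes, such as Lum, Dpt, Dcn, Lyz2 and Edn1, were named for their levels outside this rule. Promoter sequences are from RefSeq, GRCm38.p6.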

Additional observations from a re-analysis of the deposited data

Results flagged for a closer look

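Mitf was enriched in both positive fractions but by unequal amounts, and the test of the difference itself passed: the CD34 enrichment exceeded the Mts24 enrichment by 1.68 (log2, limma adjusted p = 0.0124). That call was lost without some single negative arrays, as given above, and the value ran from 1.49 to 1.86 with 1 array left out. For Mlana, K14Snail minus wild type was below 0 in both positive fractions (-0.01 and -0.30) and above 0 in both negative ones (0.48 and 0.57), so the mean of the positive fractions was -0.68 relative to the negative ones. Oca2 showed the same opposite signs, at -0.26. Neither gene was tested with the floor in place, and without it neither interaction passed (limma adjusted p = 0.301 for Mlana and 0.693 for Oca2). With only 2 pairs on each side, opposite signs rest on few arrays.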

How the results depend on the processing

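No paired analysis by replicate number was possible because each group has 1 array, so the groups share fewer than 2 replicate numbers. The fit itself compares genotypes within each fraction. For K14Snail against wild type limma called 41 genes: 63 without the floor, 220 with the pool as a random block, 1 without the CD34 sort, 0 without the Mts24 sort, and 2 to 23 when 1 array was left out. Of the 5 tested pigment cell genes 0 were called in each of these. The CD34 sort gave 2868 genes (1332 to 2531 with 1 array left out) and 1 pigment cell gene (1 to 2). That count was 2 without the floor (Ednrb joined), 2 with each array centred on its median and 2 with an intensity trend (Dct joined both times), and 0 with the mean of all probe sets, where the dim second probe set left Mitf at the floor on 1 array and so untested. That setting also gave 0 in place of 1 for the difference between enrichments, and 1 in place of 2 for CD34 positive against Mts24 positive cells. With 1 array left out, the Mts24 sort gave 783 to 3198 genes (2816 with all) and 3 to 4 pigment cell genes. The difference between enrichments gave 74 to 929 genes (508 with all) and 0 to 2 pigment cell genes. CD34 positive against Mts24 positive cells gave 257 to 1214 genes (1408 with all) and 1 to 2 pigment cell genes. The interaction gave 0 to 728 genes, 1 without the floor and 3 with the trend, and 0 to 1 pigment cell genes. It could not be fitted with a sort left out. The Mts24 call of Pmel was lost without the floor (adjusted p = 0.0543), with the pool block (0.0547) and with robust variances (0.0588). Over single pigment cell genes, 459 values under alternatives kept their side of the threshold, 10 gained a call, 15 lost one and 0 changed direction after a call. Arrays carry no background measure here, so differences with a side below the floor are uncertain in size.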
